A study of Mus musculus with 6 samples.

Results

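The Rab genes encode the small GTPases that give each membrane compartment of a cell its identity, and their transcripts were measured here in cells lavaged from mouse lungs. Members were chosen by gene symbol, as Rab followed by a number and at most 1 letter from a to d, which took 59 of the 22800 genes in the expression table. The sulfatide group had 3 libraries, replicates 1, 2 and 3, from mice injected intraperitoneally with 20 µg of sulfatide, a glycolipid antigen recognised by type II NKT cells. The vehicle group had 3 libraries, replicates 2, 3 and 4, from mice given vehicle as a control. All 6 libraries were made from poly(A)-selected RNA of bronchoalveolar lavage fluid, the saline wash of the airways. The study's title concerns lung ischemia-reperfusion injury, but the labels of these libraries do not state whether the mice underwent it, nor their strain or age. Whether each replicate was a separate animal is not stated either, and the p-values therefore reflect no more than how far these libraries scattered, which may be technical scatter.

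A Rab protein switches between a GTP-bound form that sits on a membrane and a GDP-bound form that is held in the cytosol. Guanine nucleotide exchange factors (GEFs) turn it on, GTPase-activating proteins (GAPs) turn it off, and prenyl groups on its tail together with GDP dissociation inhibitors move it on and off membranes. In its active form it recruits effectors that tether vesicles, move them along the cytoskeleton or build the next compartment. Macrophages depend on this system to mature phagosomes, where early endosomal Rabs are replaced by late endosomal ones before fusion with lysosomes, and to recycle receptors and secrete granules.

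The values were FPKM, fragments scaled by transcript length and by mapped fragments per library, as the authors deposited them. Summed FPKM ranged over 1217971 to 1249691 for sulfatide and 1126779 to 1168474 for vehicle. Each library had 10254 to 10350 genes at 1 FPKM or more. All 10 macrophage markers checked, among them Cd68, Lyz2 and C1qa, were detected, and none passed the test between the groups; their summed level was 30630 to 41920 FPKM in sulfatide libraries and 33000 to 37780 FPKM in vehicle libraries. The 10 markers of the resident alveolar macrophage summed to 88.5 to 235.6 FPKM in sulfatide libraries and 109.9 to 145.4 FPKM in vehicle libraries. Marco and Chil3, neither of them called, made most of this sum. Marco had 60.0 to 183 FPKM in sulfatide libraries and 81.2 to 104 FPKM in vehicle libraries. No library gave Fabp1 or Krt79 a value above 0. Of these 10 genes 5 were tested, and 1, Itgax, fell. Siglecf, which was too low to be tested, had 0.67 to 0.90 FPKM in sulfatide libraries and 0.08 to 0.26 FPKM in vehicle libraries. The 10 lung epithelial markers summed to at most 0.45 FPKM in sulfatide libraries and 0.21 FPKM in vehicle libraries, and the 12 T, NK and B cell markers to at most 1.57 and 1.74 FPKM in the sulfatide and vehicle libraries. Endothelial and stromal markers summed to 33.7 to 43.9 FPKM in sulfatide libraries and 39.6 to 53.4 FPKM in vehicle libraries, with Pdgfrb called lower. Mast cell, basophil and eosinophil markers reached at most 5.98 FPKM in sulfatide libraries and 4.57 FPKM in vehicle libraries, and red cell and platelet markers 17.0 FPKM in sulfatide libraries and 18.2 FPKM in vehicle libraries, with none called. In bulk samples such as these, fewer cells of a type and less RNA per cell cannot be told apart.

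A gene was tested when it reached 1 FPKM in at least 3 of the 6 libraries, and was called when limma's adjusted p over all 10405 genes tested was under 0.05. Of the 59 Rab genes 43 were tested and 6 were called. Rab31 and Rab27a were higher after sulfatide, and Rab20, Rab12, Rab21 and Rab22a were lower. The 6 calls made 14.0% of the tested Rab genes, against 18.7% of all genes tested. In the higher direction 8.31% of all genes tested were called, and in the lower direction 10.4%. The share of calls in the family was near the background.

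The promoter windows of the 3 members whose calls held under every alternative tried, Rab31, Rab20 and Rab12, are shown to set the most stable calls beside the sequence at their start sites. Each window runs from 250 bases before to 50 bases after the RefSeq start, on GRCm38.p6 and 5′ to 3′ on the gene's own strand, which is the minus strand for all 3. The Rab31 window lies at chr17:65772703-65773002, the Rab20 window at chr8:11478591-11478890 and the Rab12 window at chr17:66519621-66519920. Capitals mark matches, on either strand, to any of 7 short motifs that were searched.
Rab31 promoter: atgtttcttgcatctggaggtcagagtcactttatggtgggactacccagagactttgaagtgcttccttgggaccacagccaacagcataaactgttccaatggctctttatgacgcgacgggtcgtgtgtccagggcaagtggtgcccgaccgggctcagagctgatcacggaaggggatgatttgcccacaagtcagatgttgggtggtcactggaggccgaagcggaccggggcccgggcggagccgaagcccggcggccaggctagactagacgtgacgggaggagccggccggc
Rab20 promoter: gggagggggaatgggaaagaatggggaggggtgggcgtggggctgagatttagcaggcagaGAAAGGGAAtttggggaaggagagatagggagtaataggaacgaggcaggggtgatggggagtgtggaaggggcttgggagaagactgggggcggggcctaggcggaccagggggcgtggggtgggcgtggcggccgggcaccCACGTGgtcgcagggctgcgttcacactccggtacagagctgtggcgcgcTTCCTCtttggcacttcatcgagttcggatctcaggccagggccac
Rab12 promoter: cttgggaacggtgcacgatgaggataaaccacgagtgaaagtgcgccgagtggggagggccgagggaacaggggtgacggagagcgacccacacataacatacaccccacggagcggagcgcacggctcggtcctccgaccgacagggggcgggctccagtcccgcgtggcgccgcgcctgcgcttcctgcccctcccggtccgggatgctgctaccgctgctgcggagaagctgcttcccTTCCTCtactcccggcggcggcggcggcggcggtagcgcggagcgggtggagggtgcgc

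The motifs searched were an interferon-stimulated response element core (GAAANNGAA), a STAT site (TTCNNNGAA), an E-box (CACGTG), an AP-1 site (TGANTCA), a PU.1 core (GAGGAA), the NF-kB motif and, as a TATA box, the letters TATAA. None of these letters occurred in the Rab31 window. The Rab20 window held the interferon-response core at bases -189 to -181 from the start, the E-box at -46 to -41 and the PU.1 core, on the opposite strand, at 5 to 10. The Rab12 window held 1 PU.1 core, on the opposite strand, at -9 to -4. No match in these windows overlapped another. Across 32851 RefSeq promoter windows of the same length the interferon-response core was found in 8.56%, the E-box in 7.15% and the PU.1 core in 28.3%. Windows were found for 48 of the 59 Rab genes, and their median GC content was 61.2%, against 52.7% over all windows. A match to such short letters is a description of the window and not a binding site.

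The family spanned a wide range of levels. Averaged over the 6 libraries, 16 members had at least 100 FPKM, 18 had 10 to 100 FPKM, 9 had 1 to 10 FPKM and 16 had less than 1 FPKM. The 16 untested members included 15 that were under 1 FPKM in every library, and their highest single value was 1.3 FPKM, for Rab6b in vehicle replicate 3. Rab17, which acts in polarised epithelia, and Rab9b were listed at 0 in all 6 libraries. Rab25, another Rab of epithelia, was at most 0.20 FPKM in sulfatide libraries and 0.60 FPKM in vehicle libraries. The lowest member tested was Rab33a, with a mean of 1.15 FPKM, and the highest member not tested was Rab6b, with 0.942 FPKM.

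**Figure D1:**
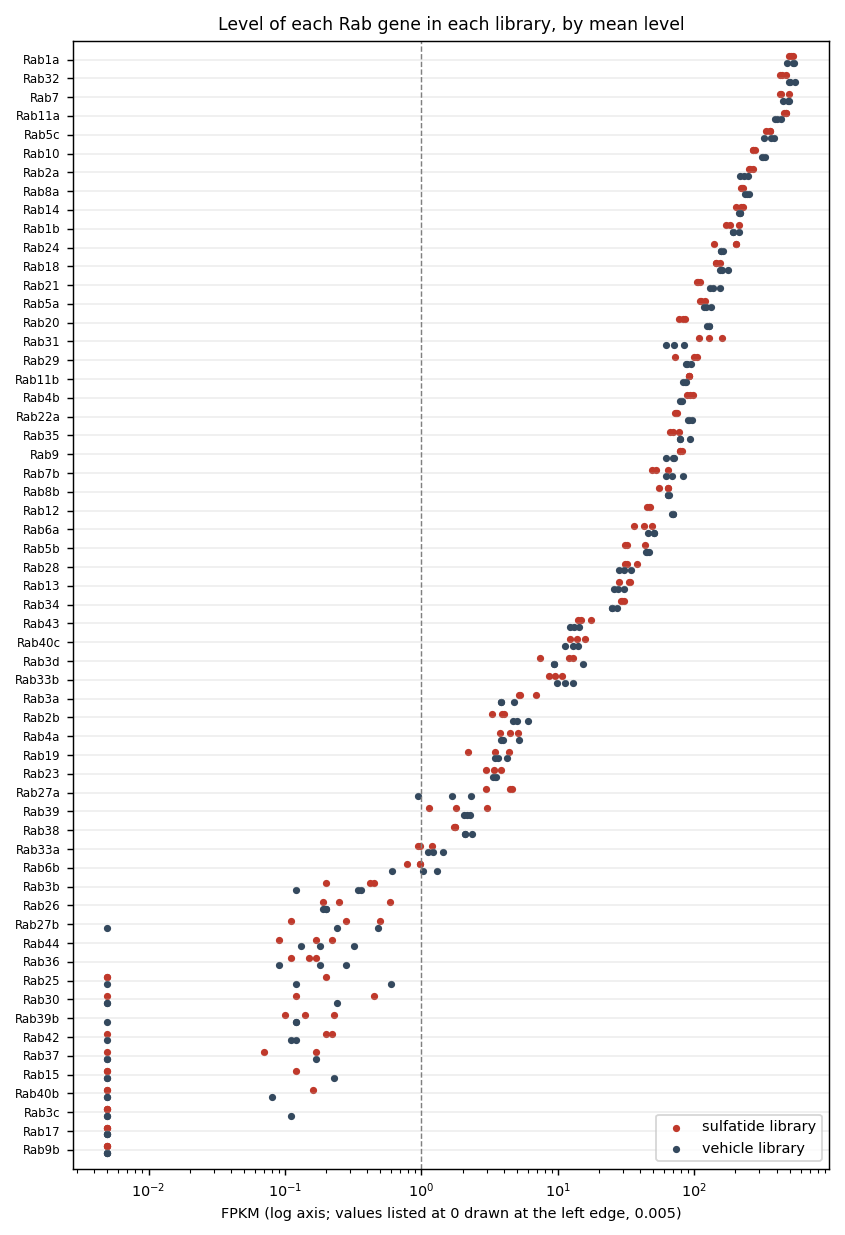
FPKM of each of the 59 Rab genes on a log axis, ordered by mean level, with the 3 sulfatide libraries (red) drawn above the 3 vehicle libraries (dark) and the dashed line at 1 FPKM. The top of the order, from Rab1a to Rab8a, lies above 200 FPKM, while 16 members at the bottom have means under 1 FPKM and Rab17 and Rab9b sit at the left edge in every library.

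A few members made most of the family's RNA. The 8 most abundant took 58.6 to 58.8% of the summed Rab FPKM in sulfatide libraries and 58.2 to 59.2% in vehicle libraries. Rab1a, which drives transport from the endoplasmic reticulum to the Golgi, averaged 508.5 ± 17.5 FPKM in sulfatide libraries and 515.3 ± 32.0 FPKM in vehicle libraries (SD, n = 3 each, as throughout). Rab32, a Rab of lysosome-related organelles, averaged 443.7 ± 26.1 FPKM in sulfatide libraries and 514.0 ± 28.3 FPKM in vehicle libraries. Rab7, the late endosomal and lysosomal Rab, averaged 448.7 ± 38.5 FPKM in sulfatide libraries and 476.1 ± 24.7 FPKM in vehicle libraries. Rab11a, the Rab of recycling endosomes, averaged 461.7 ± 10.3 FPKM in sulfatide libraries and 409.7 ± 23.6 FPKM in vehicle libraries. In sulfatide libraries Rab32, Rab7 and Rab11a overlapped one another, and Rab1a overlapped Rab7. In vehicle libraries Rab1a, Rab32 and Rab7 formed an overlapping run, and Rab11a lay below it. Rab5c, an early endosomal Rab, followed at 349.8 ± 14.7 FPKM in sulfatide libraries and 358.0 ± 30.5 FPKM in vehicle libraries. Rab10, Rab2a and Rab8a completed the 8, with means of 224.1 to 272.3 FPKM in sulfatide libraries and 230.5 to 320.1 FPKM in vehicle libraries. None of these 8 was called, against 18.7% of all genes tested, and limma's adjusted p was between 0.0561 and 0.900.

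The Rab genes were fitted slightly below 0 on balance. Fold changes were taken on log2(FPKM + 1), where changes of weakly expressed genes come out too small. By this measure 17 of the 43 tested members were fitted higher and 26 lower in sulfatide libraries. Their median log2 fold change was -0.08, against 0.04 over all genes tested, and their median absolute log2 fold change was 0.172, against 0.191. The 3 sulfatide libraries did not overlap the 3 vehicle libraries for 21 members, 9 higher and 12 lower, which was 48.8% of those tested against 37% of all genes tested. Of the 37 members not called, 31 had a 95% confidence interval that lay within 1.5-fold in either direction. Summed over all 59 members, the Rab FPKM was 4940, 5172 and 5040 in sulfatide replicates 1, 2 and 3, against 5270, 5206 and 5193 in vehicle replicates 2, 3 and 4. All 3 sulfatide sums lay below all 3 vehicle sums.

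The balance of directions depends on how libraries are scaled, because the sulfatide libraries had the larger FPKM sums. With the values rescaled to a common sum per library (TPM), 10 members were called, 2 higher and 8 lower, the additions being Rab10, Rab2b, Rab32 and Rab5b, and the Rab median was -0.19, against -0.06 over all genes. The 10 calls were 23.3% of the tested Rab genes, against 19.2% of all genes, where 467 were called higher and 1527 lower. The share of higher genes among all called genes was 44.5% on FPKM and 23.4% on TPM. The 6 members called on FPKM were also called on TPM, in the same directions.

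**Figure D2:**
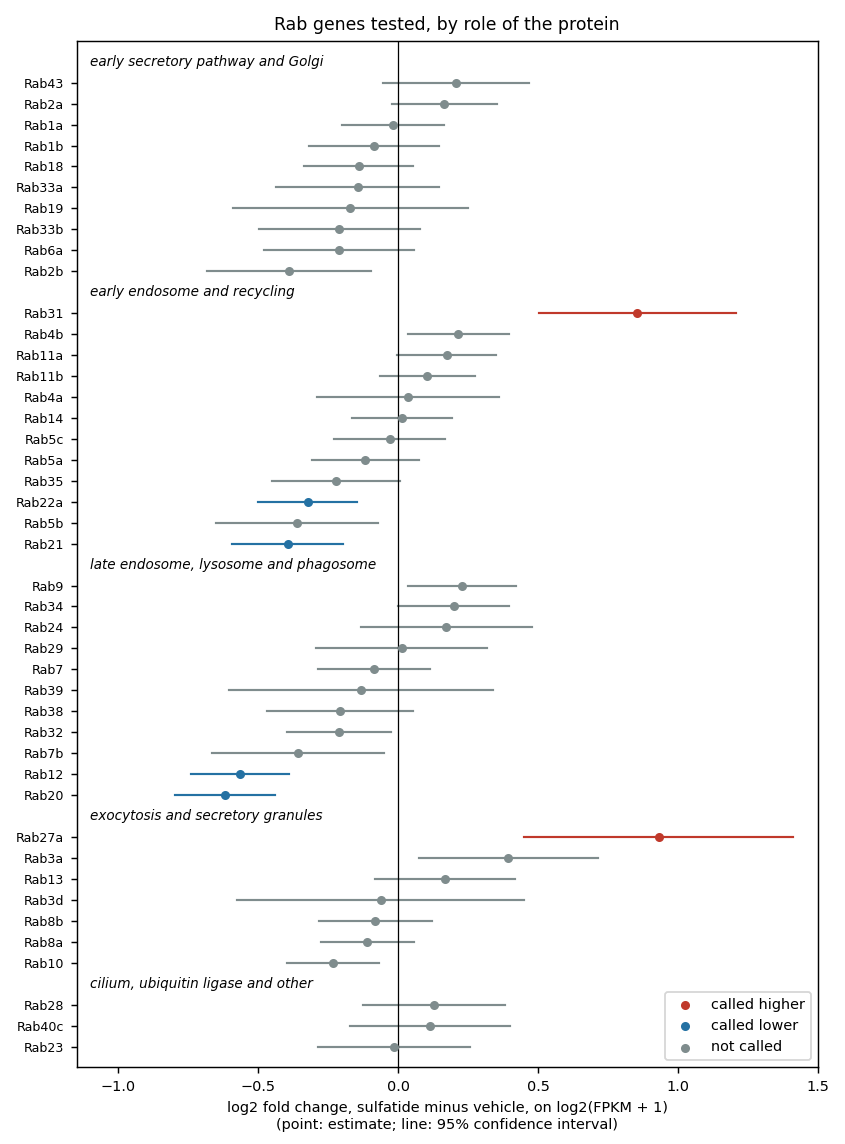
Log2 fold change of FPKM + 1, sulfatide minus vehicle, with its 95% confidence interval for the 43 tested Rab genes, grouped by role. Rab31 and Rab27a (red, called higher) stand right of the zero line, Rab20, Rab12, Rab21 and Rab22a (blue, called lower) stand left of it, and the grey genes were not called.

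Among the early endosomal and recycling Rabs, 12 of 15 were tested, with 1 called higher and 2 lower, and a median log2 fold change of -0.01. The calls were 25% of those tested, against 18.7% of all genes tested. Their summed level was 1691 to 1801 FPKM in sulfatide libraries and 1680 to 1731 FPKM in vehicle libraries, so the groups overlapped. Rab31 rose and its close relative Rab22a fell. Rab31 (chr17:65651729-65772752 on mm10, minus strand; its promoter is shown above), which acts between the trans-Golgi network and endosomes, had 108, 161 and 127 FPKM in sulfatide replicates 1, 2 and 3, against 70.6, 61.9 and 84.2 FPKM in vehicle replicates 2, 3 and 4. Every sulfatide library was above every vehicle library, with sulfatide replicate 2 the highest. The means were 132.1 ± 26.4 FPKM in sulfatide libraries and 72.2 ± 11.2 FPKM in vehicle libraries, a 1.83-fold difference with a log2 fold change of 0.85 ± 0.16 (SE) and limma's adjusted p = 0.00589. With any 1 library left out the ratio of means stayed between 1.63 and 1.99.

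Rab22a (chr2:173659760-173707343, plus strand), which sorts cargo at early endosomes for recycling, had 74.95, 71.75 and 72.75 FPKM in sulfatide libraries, against 90.63, 95.65 and 89.25 FPKM in vehicle libraries. All 3 sulfatide libraries lay within a narrow band below the vehicle libraries. The difference was 1.26-fold lower, with a log2 fold change of -0.32 ± 0.08 and limma's adjusted p = 0.0214. Rab21 (chr10:115287084-115315594, minus strand), a Rab of early endosomes known for carrying integrins, had 105, 109 and 106 FPKM in sulfatide libraries, against 155, 136 and 131 FPKM in vehicle libraries. The groups did not overlap, and vehicle replicate 2 was the highest. Rab21 was 1.32-fold lower, with a log2 fold change of -0.39 ± 0.09 and limma's adjusted p = 0.0159. Both calls were lost with some libraries left out. Without vehicle replicate 2, sulfatide replicate 1 or sulfatide replicate 3, limma's adjusted p was 0.0781, 0.0572 and 0.0828 for Rab22a, and 0.0759, 0.0549 and 0.0620 for Rab21. In these fits 8.75%, 10.6% and 10.9% of all genes tested were called, against 18.7% with all libraries. With any 1 library left out the log2 fold change stayed between -0.34 and -0.29 for Rab22a and between -0.44 and -0.32 for Rab21.

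The canonical early endosomal trio did not pass the test. Rab5a and Rab5c overlapped between the groups. Rab5b, the least abundant of them, had 32.2, 43.5 and 30.9 FPKM in sulfatide libraries, against 46.6, 45.3 and 44.3 FPKM in vehicle libraries. Sulfatide replicate 2 lay close to the vehicle libraries and the other two sulfatide libraries lay lower. Its log2 fold change was -0.36 with limma's adjusted p = 0.0805 in all 6 libraries, and -0.51 with limma's adjusted p = 0.00901 without sulfatide replicate 2. Rab4b, a Rab of fast recycling, had 97.2, 92.4 and 87.95 FPKM in sulfatide libraries, against 79.8, 80.7 and 78.1 FPKM in vehicle libraries. Its groups did not overlap, and limma's adjusted p was 0.0909. For the recycling Rabs Rab11a and Rab11b the sulfatide libraries also lay above the vehicle libraries, by 1.13-fold and 1.08-fold, with limma's adjusted p of 0.154 and 0.363.

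Among the Rabs of late endosomes, lysosomes and phagosomes, 11 of 15 were tested, none was called higher and 2 were called lower. These calls were 18.2% of those tested, against 18.7% of all genes tested, and the median log2 fold change was -0.13. Their summed level was 1438 to 1489 FPKM in sulfatide libraries and 1553 to 1640 FPKM in vehicle libraries, without overlap. The sums of the exocytosis and secretory granule Rabs did not overlap either. Rab20 (chr8:11453518-11478710, minus strand; its promoter is shown above), which associates with maturing phagosomes in macrophages and is induced by hypoxia in other settings, had 77.7, 85.7 and 83.0 FPKM in sulfatide libraries, against 128, 124 and 127 FPKM in vehicle libraries. Both groups were tight, and the highest sulfatide library was well below the lowest vehicle library. Rab20 averaged 82.1 ± 4.07 FPKM in sulfatide libraries and 126.5 ± 2.11 FPKM in vehicle libraries, 1.54-fold lower, with a log2 fold change of -0.62 ± 0.08 and limma's adjusted p = 0.000829.

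Rab12 (chr17:66494512-66519729, minus strand; its promoter is shown above), which directs transferrin receptor from recycling endosomes to lysosomes and is a substrate of the kinase LRRK2, had 45.25, 46.7 and 47.7 FPKM in sulfatide libraries, against 68.3, 69.5 and 70.3 FPKM in vehicle libraries. The groups were as tight as those of Rab20 and did not overlap. Rab12 was 1.49-fold lower, with a log2 fold change of -0.57 ± 0.08 and limma's adjusted p = 0.00133. For Rab20, the largest overlap of a single exon with an exon of a long noncoding RNA on the opposite strand, E230013L22Rik, is 356 bases. The libraries were strand-specific per the labels, but whether strand was used in counting is not given in the sources used here. The same holds for Rab22a, Rab10, Rab2b, Rab3a, Rab5a, Rab7 and Rab11b, whose exons share bases with genes on the opposite strand. Exons of Rab4b and Rab11a share bases with genes on the same strand, and how such reads were assigned is likewise unknown.

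The most abundant lysosomal Rabs did not pass the test. Rab32 had 422, 473 and 436 FPKM in sulfatide libraries, against 546, 494 and 501 FPKM in vehicle libraries. The groups did not overlap, and the log2 fold change was -0.21 ± 0.08 with limma's adjusted p = 0.106. Rab7 overlapped, with a log2 fold change of -0.09 and limma's adjusted p = 0.523. Rab7b, a relative of Rab7 on late endosomes, had 48.6, 64.6 and 51.9 FPKM in sulfatide libraries, against 68.3, 62.0 and 82.2 FPKM in vehicle libraries. Sulfatide replicate 2 lay inside the vehicle range, and limma's adjusted p was 0.0975 with all libraries, 0.0418 without sulfatide replicate 2 and 0.0428 without vehicle replicate 3. Rab24, known from autophagy, had 200.2, 140.1 and 201 FPKM in sulfatide libraries, against 156, 162 and 156 FPKM in vehicle libraries. Here sulfatide replicate 2 was the lowest of all 6 libraries. Limma's adjusted p for Rab24 was 0.405 with all libraries and 0.0261, in the higher direction, without sulfatide replicate 2. The largest overlap of a single Rab24 exon with an exon of Prelid1, on the opposite strand, is 830 bases.

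The groups also did not overlap for 5 further members that were not called, with limma's adjusted p between 0.0949 and 0.554. Rab9, which returns receptors from late endosomes to the Golgi, averaged 79.1 ± 1.58 FPKM in sulfatide libraries and 67.5 ± 4.82 FPKM in vehicle libraries. Rab34, which acts in lysosome positioning, averaged 29.6 ± 0.782 FPKM in sulfatide libraries and 25.7 ± 1.3 FPKM in vehicle libraries. Both were higher in sulfatide libraries, while Rab35, Rab8b and Rab38, the scarce partner of Rab32, were lower by 1.17-fold, 1.06-fold and 1.25-fold.

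**Figure D3:**
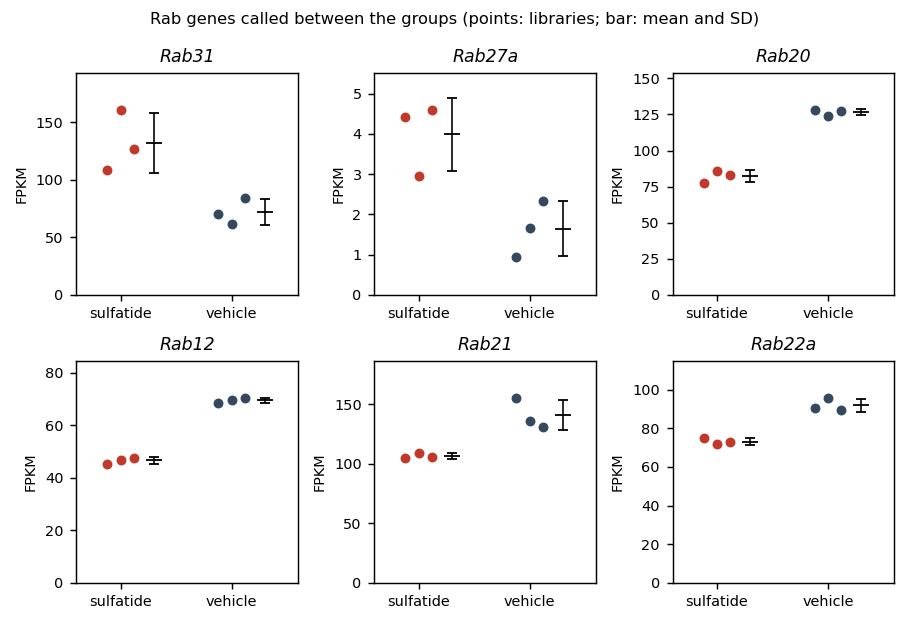
FPKM of the 6 called Rab genes in each library, with 3 sulfatide libraries (red, left) and 3 vehicle libraries (dark, right) per panel and a bar for the mean and SD. In every panel the groups do not overlap, Rab31 and Rab27a being higher and Rab20, Rab12, Rab21 and Rab22a lower in sulfatide libraries.

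Among the Rabs of exocytosis and secretory granules, 7 of 13 were tested, with 1 called higher and none lower, and a median log2 fold change of -0.06. The call was 14.3% of those tested, against 18.7% of all genes tested. Their summed level was 601.2 to 621.4 FPKM in sulfatide libraries and 658.5 to 683.4 FPKM in vehicle libraries, without overlap. Rab27a (chr9:73044854-73097629, plus strand), which docks lysosome-related granules and exosome-bearing compartments at the plasma membrane, had 4.42, 2.95 and 4.59 FPKM in sulfatide libraries, against 0.95, 1.67 and 2.32 FPKM in vehicle libraries. The groups did not overlap, although sulfatide replicate 2 came near vehicle replicate 4. The means were 3.99 ± 0.902 FPKM in sulfatide libraries and 1.65 ± 0.685 FPKM in vehicle libraries, a 2.42-fold difference with a log2 fold change of 0.93 ± 0.21 and limma's adjusted p = 0.0177. Without vehicle replicate 2, sulfatide replicate 1 or sulfatide replicate 3, limma's adjusted p was 0.0636, 0.0542 and 0.0622. The largest overlap of a single Rab27a exon with a processed pseudogene on the same strand, Gm27186, is 149 bases.

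Neutrophils use Rab27a for granule release, and their markers did not move together. Over the 12 neutrophil markers the summed level was 460.8 to 634.9 FPKM in sulfatide libraries and 174.6 to 240.9 FPKM in vehicle libraries. Of these markers 6 were tested, 3 fitted above 0 and 3 below, and 2 rose, S100a8 and Mmp8. S100a8 alone made most of the sum, with 361 to 471 FPKM in sulfatide libraries and 91.7 to 114 FPKM in vehicle libraries. S100a9, Ngp and Camp were fitted below 0 and were not called, at log2 fold changes of -0.15, -0.24 and -0.45. The defining markers Ly6g and Cxcr2 were at most 0 and 0.12 FPKM in sulfatide libraries and 0.18 and 0.07 FPKM in vehicle libraries. The part of these cells in the Rab27a result was not tested.

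The plasma membrane Rabs of high abundance were lower without being called. Rab10, which carries cargo to the cell surface and to phagosomes, had 268, 280.1 and 269 FPKM in sulfatide libraries, against 320.03, 329 and 311 FPKM in vehicle libraries. All 3 sulfatide libraries were below all 3 vehicle libraries. Its log2 fold change was -0.23 ± 0.07 with limma's adjusted p = 0.0561, the smallest among members not called. Rab8a, its close relative, had 221, 228 and 224 FPKM in sulfatide libraries, against 233, 244 and 249.5 FPKM in vehicle libraries. The groups were separate but near, and limma's adjusted p was 0.320. Rab3a, a Rab of regulated secretion, had 6.88, 5.23 and 5.17 FPKM in sulfatide libraries, against 3.81, 3.81 and 4.78 FPKM in vehicle libraries, with a log2 fold change of 0.39 and limma's adjusted p = 0.0830. The sulfatide libraries were the higher ones for Rab3a, also without overlap. Rab27b, Rab37, Rab44, Rab26, Rab3b and Rab3c, which serve granules of neurons, glands, mast cells and other secretory cells, stayed at or under 0.59 FPKM in every library.

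The Rabs of the early secretory pathway and Golgi gave no call among 10 tested of 12, against 18.7% of all genes tested. Their median log2 fold change was -0.14. Their summed level was 1152 to 1213 FPKM in sulfatide libraries and 1146 to 1238 FPKM in vehicle libraries, so the groups overlapped. Rab2a, which acts between the endoplasmic reticulum and Golgi and in late endosomal fusion, had 269, 249.3 and 256 FPKM in sulfatide libraries, against 231, 246 and 214 FPKM in vehicle libraries. Rab2b, its scarce relative, had 3.31, 4.03 and 3.90 FPKM in sulfatide libraries, against 6.04, 5.02 and 4.65 FPKM in vehicle libraries. Sulfatide libraries were thus the higher ones for Rab2a and the lower ones for Rab2b, with limma's adjusted p of 0.199 and 0.0661. None of the 3 tested Rabs of cilia, ubiquitin ligases and other roles, Rab23, Rab28 and Rab40c, was called, and their groups overlapped. Over all genes tested 18.7% were called and 37% did not overlap.

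Ratios taken within a library do not depend on how that library was scaled. Of 14 ratios between related or co-acting members, 6 did not overlap between the groups. Single genes did not overlap for 37% of all genes tested, and a share over other pairs of genes was not computed. For Rab31 over Rab22a and Rab2b over Rab2a the separation adds nothing new. The members of each of these pairs already lay apart between the groups, in opposite directions. Rab31 over Rab22a was 1.45, 2.24 and 1.75 in sulfatide replicates 1, 2 and 3, against 0.779, 0.648 and 0.943 in vehicle replicates 2, 3 and 4. Rab31 was thus the more abundant of the pair in every sulfatide library and the less abundant in every vehicle library. Rab7b over Rab7 was 0.114, 0.131 and 0.122 in sulfatide libraries, against 0.141, 0.138 and 0.166 in vehicle libraries. Rab2b over Rab2a was 0.0123, 0.0162 and 0.0152 in sulfatide libraries, against 0.0262, 0.0204 and 0.0217 in vehicle libraries. Both of these ratios were lower in every sulfatide library, and Rab10 over Rab8a, at 1.20 to 1.23 in sulfatide libraries and 1.25 to 1.37 in vehicle libraries, was lower as well. The ratios of Rab11a to Rab11b, Rab5b to Rab5c, Rab8b to Rab8a and Rab1b to Rab1a overlapped. These ratios are given as descriptions, since an exact 2-sided permutation test of 3 libraries against 3 cannot give a p below 0.1.

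**Figure D4:**
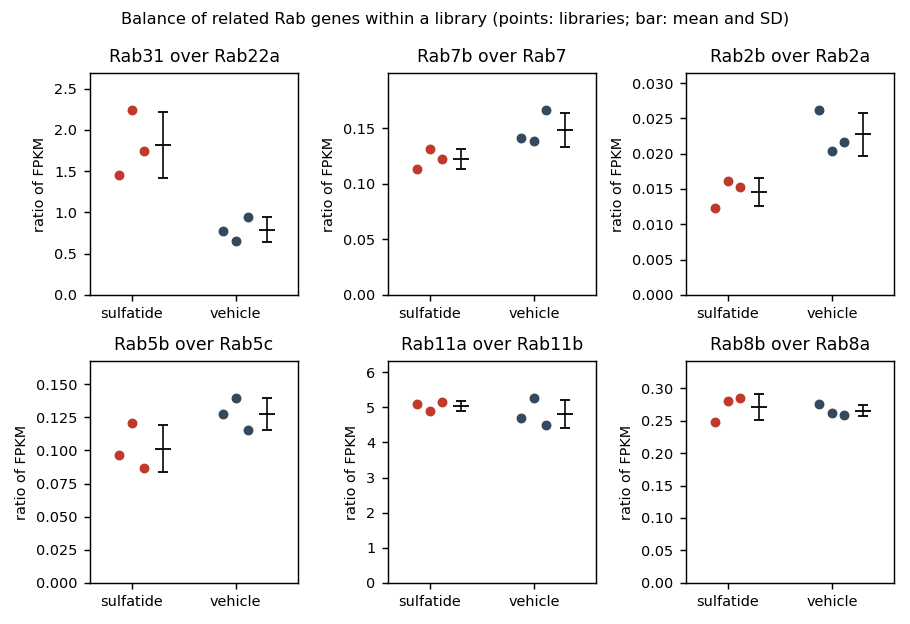
Ratio of the FPKM of related Rab genes within each library for 6 pairs, with sulfatide libraries (red) left of vehicle libraries (dark) and a bar for the mean and SD. Rab31 over Rab22a lies above 1 in every sulfatide library and below 1 in every vehicle library, while Rab5b over Rab5c, Rab11a over Rab11b and Rab8b over Rab8a overlap.

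Among the Rab genes, sulfatide replicate 2 was the library most often apart within its group, whereas over all genes tested vehicle replicate 3 was, at 44.4%. It lay farthest from the sulfatide median for 22 of the 43 tested members, 51.2%, against 41.7% of all genes tested. For 6 members, Rab7, Rab18, Rab5a, Rab7b, Rab6a and Rab13, it was the only sulfatide library within the vehicle range. That is 14.0% of the tested members, against 14.3% of all genes tested. The median SD of the members on the log2 scale was 0.119 among sulfatide libraries and 0.0911 among vehicle libraries. Over all genes tested it was 0.129 among sulfatide libraries and 0.132 among vehicle libraries.

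The regulators of Rab proteins were read from 4 lists of 147 genes, of which 146 were in the table and 117 were tested. In these lists 7 genes were called higher and 12 lower, 16.2% of those tested, against 18.7% of all genes tested. On FPKM the share of calls in the 4 lists together was thus not above the background, unlike on TPM. The median log2 fold change of the tested list genes was -0.07, against 0.04 over all genes tested. Among the activators 3 of 44 tested rose and 3 fell, 13.6% of those tested. Rab3il1, an exchange factor for Rab8 and Rab3a, had 40.9, 49.2 and 47.7 FPKM in sulfatide libraries, against 12.1, 8.39 and 15.8 FPKM in vehicle libraries. Every sulfatide library was well above the highest vehicle library, and the 3.80-fold difference had a log2 fold change of 1.88 ± 0.19 and limma's adjusted p = 0.000275. This was the largest change among the called regulators. Dennd4b, an exchange factor for Rab10, was 1.49-fold lower, at 8.98 ± 0.707 FPKM in sulfatide libraries and 13.3 ± 1.21 FPKM in vehicle libraries, with limma's adjusted p = 0.0131. Rabgef1, which activates Rab5 and Rab21, was 1.29-fold lower, and Mon1b, of the Mon1-Ccz1 complex that activates Rab7, was 1.65-fold lower. Trappc5, a core subunit of the TRAPP complexes that activate Rab1, was 1.24-fold higher. Trappc1, of the same complexes, was the other activator called higher.

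Among the inactivators 3 of 30 tested rose and 4 fell, 23.3% of those tested, against 18.7% of all genes tested. Tbc1d2b, a GAP for Rab22a, was 1.56-fold lower, at 5.07 ± 0.366 FPKM in sulfatide libraries and 7.93 ± 0.187 FPKM in vehicle libraries, with limma's adjusted p = 0.00722. Tbc1d13, a GAP for Rab35, was 1.42-fold lower, and Tbc1d1, a GAP for Rabs such as Rab10, was 1.39-fold lower. Tbc1d14, a TBC domain protein that binds Rab11 in autophagy, was 1.47-fold higher, and Tbc1d8 was 1.62-fold higher. Tbc1d9 was also called higher and Tbc1d10b lower. None of the 7 tested genes of prenylation and membrane recycling was called, against 18.7% of all genes tested. Gdi2, an abundant GDP dissociation inhibitor, had 464, 467 and 456 FPKM in sulfatide libraries, against 434, 436 and 387 FPKM in vehicle libraries, with limma's adjusted p = 0.236. The sulfatide libraries lay above the vehicle libraries without overlap.

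Among the effectors and kinases 1 of 36 tested rose and 5 fell, 16.7% of those tested, against 18.7% of all genes tested. Their median log2 fold change was -0.18. Rab11fip1, a Rab11 effector of receptor recycling, had 3.96, 5.00 and 4.00 FPKM in sulfatide libraries, against 9.77, 10.8 and 11.1 FPKM in vehicle libraries. The groups were far apart, at 2.45-fold lower with a log2 fold change of -1.12 ± 0.12 and limma's adjusted p = 0.000366. Appl1 and Appl2, paired effectors of Rab5 and Rab21 on early signalling endosomes, were called in opposite directions. Appl1 had 16.3, 13.4 and 15.9 FPKM in sulfatide libraries, against 26.6, 31.9 and 20.7 FPKM in vehicle libraries, 1.74-fold lower with limma's adjusted p = 0.0112. Appl2 had 18.1, 19.8 and 21.4 FPKM in sulfatide libraries, against 12.8, 11.2 and 13.9 FPKM in vehicle libraries, 1.56-fold higher with limma's adjusted p = 0.00665. Appl2 was thus the more abundant in every sulfatide library and Appl1 in every vehicle library. Unc13d, the Rab27a effector that primes granules, was 1.42-fold lower while Rab27a itself was higher. Ankfy1, a Rab5 effector of macropinocytosis, was 1.63-fold lower. Lrrk2, a kinase whose substrates include Rab12 and Rab10, had 1.77, 1.79 and 1.91 FPKM in sulfatide libraries, against 2.73, 3.72 and 3.12 FPKM in vehicle libraries, 1.75-fold lower with limma's adjusted p = 0.0178. Trappc1, Tbc1d9, Tbc1d10b and Lrrk2 are named after their values were seen.

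Of the named regulators, Rab3il1, Tbc1d2b, Rab11fip1 and Appl2 kept their call with any 1 library left out. Without vehicle replicate 2 limma's adjusted p was 0.0552 for Tbc1d13, 0.0525 for Appl1 and 0.0546 for Unc13d, and without sulfatide replicate 1 it was 0.0572 for Lrrk2. Dennd4b, Rabgef1, Mon1b, Trappc5, Tbc1d14, Tbc1d1, Tbc1d8 and Ankfy1 lost their call with more than 1 choice of library, vehicle replicate 2 and sulfatide replicate 3 among them for each, where limma's adjusted p was between 0.0519 and 0.147. Leaving out vehicle replicate 3 or 4 or sulfatide replicate 1 or 2 also ended the call of some of these 8 genes, at limma's adjusted p of 0.0503 to 0.150. Trappc1, Tbc1d9 and Tbc1d10b each lost their call without vehicle replicate 2, sulfatide replicate 1 or sulfatide replicate 3, at limma's adjusted p of 0.0566 to 0.168. Without vehicle replicate 4 limma's adjusted p was 0.109 for Trappc1 and 0.142 for Tbc1d10b, without vehicle replicate 3 it was 0.0764 for Tbc1d9 and 0.0577 for Tbc1d10b, and without sulfatide replicate 2 it was 0.0870 for Tbc1d9. On TPM the calls of Trappc5, Tbc1d14, Tbc1d8, Trappc1 and Tbc1d9 were lost, at limma's adjusted p of 0.119, 0.0718, 0.0708, 0.0874 and 0.105, which left Rab3il1 and Appl2 as the 2 regulators called higher. With the 23 called lower, the calls on TPM were a larger share of the 117 tested list genes than the 19.2% over all genes.

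**Figure D5:**
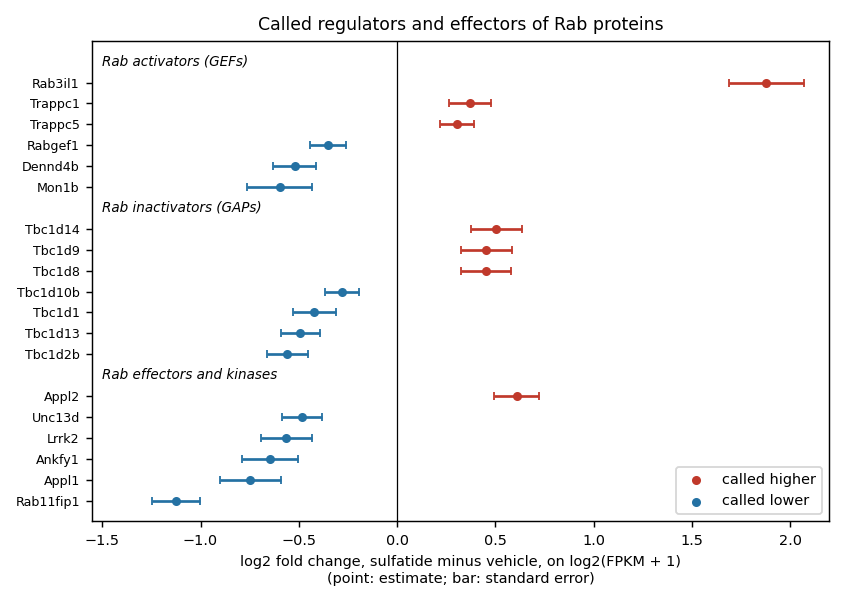
Log2 fold change of FPKM + 1, sulfatide minus vehicle, with its standard error for the 19 called regulators and effectors of Rab proteins, grouped by list. Rab3il1 stands farthest right at 1.88 and Rab11fip1 farthest left at -1.12, and Appl2 and Appl1 lie on opposite sides of the zero line.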

How the data were processed

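Bulk RNA sequencing of mouse bronchoalveolar lavage cells was compared between 3 sulfatide and 3 vehicle libraries, grouped by their labels. The authors deposited FPKM values per gene and, per the submitters' processing notes, used mm10. Aligner, counter, annotation and strand setting: not given in the sources used here. Read counts were not used, so absolute depth is unknown; the steps between low FPKM values gave relative depths of 0.850 to 1.20 for sulfatide and 1 to 1.06 for vehicle libraries. Another 3 value columns matched no sample and were not used.

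Genes at 1 FPKM or more in at least 3 libraries were fitted on log2(FPKM + 1), with a pseudocount of 1, by limma 3.58.1 (lmFit and eBayes with trend) in R 4.3.3. The test was 2-sided, with Benjamini-Hochberg adjustment over 10405 genes and a threshold of 0.05; folds in the text are ratios of mean FPKM. In 10 simulated draws with 200 changed genes, 84.3% of 2-fold and 49.8% of 1.5-fold changes were recovered, and 4.66% of calls were false. The draws used independent noise per gene and fewer changed genes than the 1943 called here, so these rates need not hold for these data. The members, the role, regulator and marker lists and the rule for named genes were chosen with earlier results of these data known. The rule named every called member, the 8 most abundant, the 5 with the smallest p among those not called, and up to 5 called genes of smallest p per regulator list; other members with values were added as relatives of these. Gene coordinates are from GENCODE on GRCm38, the same assembly as mm10. Promoter windows are from RefSeq on GRCm38.p6. Alternatives covered the pseudocount, the filter, TPM rescaling, quantile normalization, array weights, a replicate block and leaving out each library.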

Additional observations from a re-analysis of the deposited data

How the results depend on the processing

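Rab31, Rab20 and Rab12 were called in the same direction under all 14 alternatives, and no called Rab gene or named regulator changed sign. The fitted changes of Rab1a and Rab5c, which were near 0 and not called, did: Rab1a was -0.02, and 0.0018 to 0.0134 with quantile normalization or without vehicle replicate 2, vehicle replicate 3 or sulfatide replicate 1. Rab5c was -0.03, and 0.0044 to 0.0571 with the block or without vehicle replicate 4 or sulfatide replicate 1. Members called higher numbered 2, against 1 with no filter, 1 with a filter at 5 FPKM, which left Rab27a untested, 6 with array weights and 1 to 3 with 1 library left out. Members called lower numbered 4, against 8 on TPM, 9 with array weights and 2 to 6 with 1 library left out. With array weights 34.9% of the tested members were called, against 36.3% of all genes tested. With 1 library left out these shares were 6.98 to 20.9% of the members and 8.75 to 24.3% of all genes. The Rab median log2 fold change was -0.08, -0.19 on TPM, -0.04 with no filter, -0.03 with the replicate block and -0.11 to -0.05 with 1 library left out. Regulators called higher numbered 7, against 3 with no filter, 2 on TPM, 13 with array weights and 2 to 6 with 1 library left out; those called lower numbered 12, against 23, 25 and 3 to 15 on TPM, with array weights and with 1 library left out. Over all genes 865 were called higher, against 522 with no filter, 467 on TPM, 2054 with array weights and 268 to 1421 with 1 library left out, and 1078 were called lower, against 1723 with array weights and 642 to 1135 with 1 library left out. The causes of these shifts were not tested. Fits without 1 library also had fewer samples, and the part of this in the shifts was not tested either.

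Only the replicate numbers 2 and 3 occur in both groups. Deviations from the group means correlated across genes at r = 0.156 for number 2 and -0.303 for number 3. Pairs of unlike number ran from -0.399, for sulfatide replicate 1 with vehicle replicate 4, to 0.538, for sulfatide replicate 1 with vehicle replicate 3. Genes are not independent replicates and each group has 3 libraries, so these values cannot show whether libraries of the same number were paired. The replicate block was fitted on all 6 libraries, but its group effect rests on replicates 2 and 3 of each group. Sulfatide replicate 1 and vehicle replicate 4 had no library of their number in the other group. With the block 2 Rab genes were called higher and 3 lower, 11.6% of those tested, against 8.96% of all genes tested. Rab22a had limma's adjusted p = 0.0860 in this fit. Among the regulators 3 were called higher and 2 lower. Over all genes the block gave 297 higher and 635 lower.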
